A study of Mus musculus with 4 samples.

Results

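The genes H2-K1, H2-Q4, Psmb10, Jak2 and Ifnar2 belong to antigen presentation by MHC class I and to the interferon response. They were taken by name from the deposited lists of RNA sequence variants of 2 mouse cancer cell lines, with every listed variant kept whatever its annotated effect. These 5 genes, of 5615 with any listed variant, carried 9 variants, 3 of the 5445 in LM8 and 6 of the 6361 in MBT2. MBT2, a line from a bladder cancer with the clone label 63, was grown in RPMI-1640, and LM8, from an osteosarcoma, in MEM with 24 mM HEPES. Both are syngeneic with C3H/HeN mice, grew with 10% serum and no treatment, and gave 2 poly(A) RNA libraries each. Nothing in the labels tells if the libraries of a line came from different cultures, and p-values over their reads may then measure technical spread alone. The lists hold no expression values, so the lines could be set against their labels only by which genes carry a variant. LM8 had variants in 3 of 7 osteoblast markers (Col1a1, Col1a2 and Runx2) and MBT2 in 0. Neither line had one in 9 urothelial, 5 leukocyte or 3 endothelial markers. Over all genes, 3496 had a variant in LM8 and 3934 in MBT2, and their share of the expressed genes was not computed. So few markers do not test the labels.

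MHC class I molecules carry peptides to the cell surface, where CD8+ T cells inspect them. The heavy chain, encoded by H2-K1 or H2-Q4, folds with the product of B2m. The peptides come from the proteasome, which takes up inducible catalytic subunits such as Psmb10 in cells exposed to interferon. Ifnar2 is a chain of the type I interferon receptor. Jak2 is a tyrosine kinase that acts at the interferon gamma receptor, whose signal raises transcription of class I genes. The H2 genes form a family of near copies and differ between mouse strains, so a read or an allele can be hard to assign there.

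The sequences around the coding and splice variants are shown here because the comparisons below turn on them. They are given 5′ to 3′ on the RNA strand, from the GENCODE M21 transcript that the annotation chose or, for Psmb10, from the deleted bases in the list. Capitals mark the changed bases, the deleted bases of Ifnar2, the repeat of Jak2, and the first and last bases of the deleted stretches of Jak2 and Psmb10.
H2-K1 reference: agTattacacatgccatgtgtaccatCag
H2-K1 with Y277N and Q285E: agAattacacatgccatgtgtaccatGag
H2-Q4 reference: gtcaccctgaGgtgctgggcc
H2-Q4 with R251K: gtcaccctgaAgtgctgggcc
Jak2 reference at codon 276: aagaatctgcAagaggtcctt
Jak2 with the silent A276 change: aagaatctgcTagaggtcctt
Jak2 deletion, left edge: gaagcgaatcagGTacagatttcgcaga
Jak2 deletion, right edge: cctggaaaccctgcAGtctgccttctac
Jak2 with the edges joined: gaagcgaatcagtctgccttctac
Jak2 repeat, reference: atagatcacAAAAAActtcttcaa
Jak2 repeat with the insertion: atagatcacAAAAAAActtcttcaa
Ifnar2 reference: agaacaagtctgGCCCacccgctaacta
Ifnar2 with the deletion: agaacaagtctgacccgctaacta
Psmb10 deletion, first 20 bases: GTcagtatgccccggaccag
Psmb10 deletion, last 20 bases: accatccctttgtcccttAG

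No variant of the 5 genes was in both lists, also when only the position was matched. Over all records, 23.2% of LM8 and 19.8% of MBT2 were in both. Of these 1261 shared sites, 516 were not deletions of 21 or more bases, the kind of 3 LM8 and 4 MBT2 variants of the 5 genes. So few variants do not tell if the 5 genes differ from the lists in this. H2-K1, Psmb10 and Ifnar2 had variants in MBT2 alone, H2-Q4 in LM8 alone, and Jak2 had different variants in the 2 lines. A site missing from a list can be unchanged, too thinly read or removed by a filter, and the lists do not tell these apart. Of the 9 variants, 7 were annotated as altering the protein, 2 of 3 in LM8 and 5 of 6 in MBT2, against 35.6% and 38.0% of the whole lists. Without deletions of 21 or more bases the MBT2 count was 3 of 4, against 28.1% of all such MBT2 records. The LM8 count stayed at 2 of 3, against 25.7%. The 5 genes were chosen with earlier results of these data known, and each carries an altering variant. Their shares therefore do not test if they differ from the lists. The sites were read 89 to 776 times over both libraries of a line, and the median over all records was 124 reads in LM8 and 141 in MBT2. Every value below is the share of reads with the alternative allele, with exact Clopper-Pearson 95% intervals that cover counting error only.

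**Figure D1:**
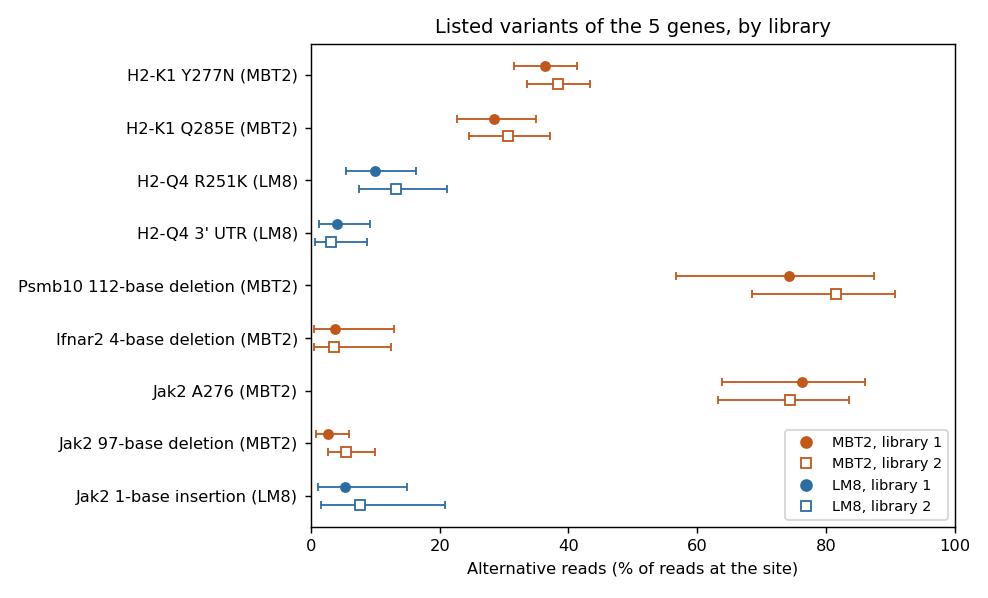
Share of reads with the alternative allele (x axis, percent) for the 9 variants of the 5 genes (y axis), with 1 point per library and bars for exact 95% intervals. The bars of the 2 libraries of a line overlap at each site, and library shares run from 2.62% for the Jak2 97-base deletion in library 1 to 81.5% for the Psmb10 deletion in library 2.

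Of the 9 variants, the duplicates differed at 0 by a two-sided Fisher's exact test with Benjamini-Hochberg adjustment over all records of the line and at 0 at an unadjusted p under 0.05, the lowest being an exact p of 0.191. Over the whole lists, the adjusted test called 0.0% of sites in LM8 and 0.0% in MBT2, and the unadjusted one 3.89% and 3.76%. Each of the 9 alternative alleles had reads in both libraries of its line. The libraries of a line were called jointly, and the share of all records with reads in both was not computed.

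H2-K1, a classical class I heavy chain gene, carried 2 missense substitutions in exon 4, which encodes the third extracellular domain, the part that CD8 contacts. Y277N (GRCm39 chromosome 17, position 34216316, transcript ENSMUST00000025181) was in 140 of 385 reads of MBT2 library 1 (36.4%) and 150 of 391 of library 2 (38.4%), which gives 37.4% together (34.0 to 40.9). Q285E (position 34216292) was in 63 of 221 reads (28.5%) and 68 of 222 (30.6%), together 29.6% (25.4 to 34.1). At both sites the libraries differed by less than the intervals allow, and Q285E was lower than Y277N in each. The sites lie 24 bases apart, within a single read, and the caller placed both alternative bases in 1 phase group in each library. Phase groups were given to 14.6% of all MBT2 records. A share of 20% of reads or more, as at both sites, was found for 23.1% of MBT2 and 13.5% of LM8 substitutions.

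The alternative bases of H2-K1 were those that other class I genes carry in the reference. A window of 21 bases centred on Y277N, with the alternative base in it, occurred in transcripts of 12 other genes, among them H2-D1, H2-Q4, H2-Q6, H2-Q7 and H2-Q10. The window with the reference base occurred outside H2-K1 in H2-T23 alone. For Q285E the alternative window occurred in 9 other genes, among them H2-D1, H2-Q10, H2-T22 and H2-T23, and the reference window in 0. The 29-base stretch shown above with both changes occurred whole in H2-Q1, H2-Q10, H2-Bl, H2-T-ps and Gm8909, the one with Q285E alone in H2-T23, and the one with Y277N alone in 0 genes. Among all coding substitutions that could be placed in a transcript, the alternative window occurred in another gene for 11 of 1079 in MBT2 (1.02%) and 9 of 949 in LM8 (0.948%), so the H2-K1 pair makes up 2 of those 11. The median mapping quality was 60 for both alleles at each of the 9 sites. The filter asked for at least 30, and the share over all records was not computed. How far this quality tells near copies apart was not tested. Whether the alternative reads come from another class I gene, from an allele of the C3H/HeN strain or from a change in the line was not tested, since C3H/HeN sequences and the reads were not used here.

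H2-K1 also stood out by read strand, in a test added after the data were seen. Q285E was in 14 of 122 reads aligned to the forward strand (11.5%) and 117 of 321 on the reverse strand (36.4%), an adjusted p of 1.31e-05 by a two-sided Fisher's exact test with Benjamini-Hochberg adjustment over all MBT2 records. The shares were 10.9% and 35.7% in library 1 and 12.1% and 37.2% in library 2, so the gap had the same size in both. Y277N was in 63 of 236 forward reads (26.7%) and 227 of 540 reverse reads (42.0%), with an adjusted exact p of 0.00301. Its shares were 30.6% and 39.0% in library 1 and 22.6% and 44.9% in library 2, so that the gap was wider in library 2. These were 2 of the 6 MBT2 variants of the 5 genes, where the test called 3.49% of all MBT2 sites and 1.2% of the substitutions, and at an unadjusted p under 0.05 13.4% and 8.99%. In LM8 it called 0 of 3, against 2.72% of all sites and 1.07% of the substitutions. There, H2-Q4 R251K (exact p = 0.036), the H2-Q4 3′ UTR change (exact p = 0.00454) and the Jak2 insertion (exact p = 0.0318) had an unadjusted p under 0.05, as did 11.4% of all LM8 sites and 7.92% of the substitutions.

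**Figure D2:**
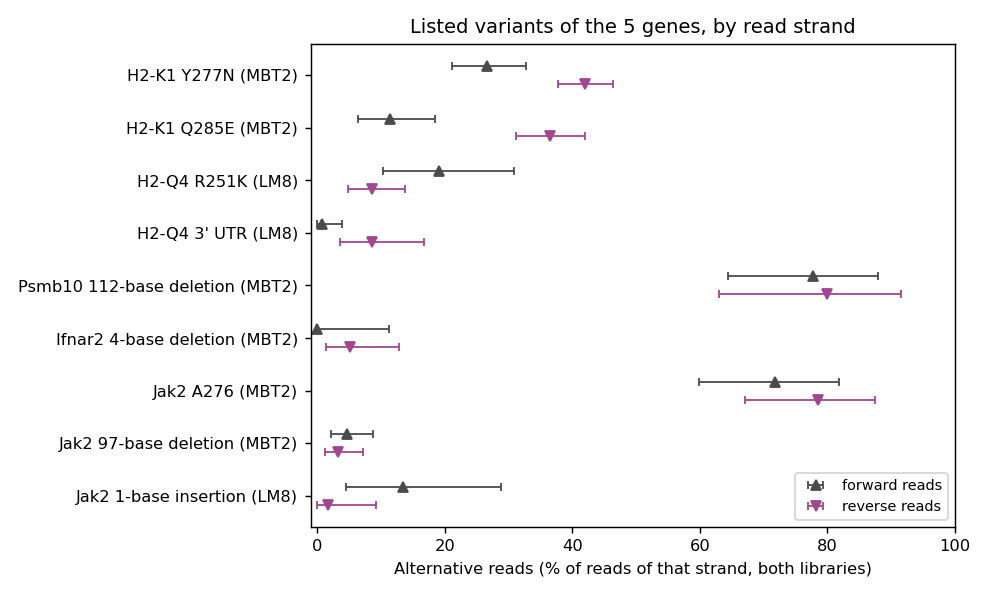
Share of reads with the alternative allele (x axis, percent) among forward and reverse reads of both libraries together, for the 9 variants (y axis), with exact 95% intervals. For H2-K1 the forward and reverse intervals are apart, at 11.5% and 36.4% for Q285E and at 26.7% and 42.0% for Y277N.

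H2-Q4, a class I gene of the Q region, carried R251K in LM8, also in exon 4 (position 35601891, transcript ENSMUST00000081435). It was in 13 of 131 reads of library 1 (9.92%) and 14 of 106 of library 2 (13.2%), together 11.4% (7.64 to 16.1). In contrast to H2-K1, the alternative window of R251K occurred in 0 genes, while the reference window was shared with 29 other genes. The second H2-Q4 variant in LM8 was a T-to-C change in the 3′ UTR (exon 6, position 35603154), in 5 of 124 reads (4.03%) and 3 of 97 (3.09%), together 3.62% (1.58 to 7.01). Its alternative base lay a median of 1 base from the end of the read, against 23 bases for R251K. A distance of at most 3 bases was frequent in the lists, at 46.2% of LM8 and 45.0% of MBT2 substitutions.

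The lists give each record a population allele frequency, of a population that the sources used here do not name. It was 0.394 for H2-K1 Y277N and 0.375 for H2-Q4 R251K. The other 7 variants, Q285E included, had the value that most records share, and a different one was given to 3.01% of LM8 and 2.80% of MBT2 records. The lists also give a Phred-scaled quality that an allele is not germline, with a ceiling of 93, which 6 of the 9 variants reached. The exceptions were Psmb10 with 4, H2-K1 Y277N with 34 and the silent Jak2 change with 37, and 37.7% of LM8 and 38.1% of MBT2 records were under the ceiling. These values did not run in parallel, since R251K had a high population frequency and a germline quality of 93.

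Psmb10, an inducible catalytic subunit of the immunoproteasome, had a listed deletion of 112 bases in MBT2, annotated as a splice acceptor change (chromosome 8, positions 106664013 to 106664125 with the base before it, transcript ENSMUST00000034369). It was in 26 of 35 reads of library 1 (74.3%) and 44 of 54 of library 2 (81.5%), together 78.7% (68.7 to 86.6), the highest share among the 9 variants and the lowest depth. Its length equals that of intron 3, which 1 of the 7 introns of the transcript has. On the RNA strand the deleted bases start with GT and end with AG, as introns do. They also occurred whole in 3 of the 7 annotated Psmb10 transcripts, that is, as sequence kept in the RNA. Deletions of the length of an intron of the same gene were common, at 67.7% of 1934 long deletions in MBT2 genes, with a median of 88.3% of reads.

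Ifnar2, a chain of the type I interferon receptor, had a deletion of 4 bases in exon 4 in MBT2, annotated as a frameshift at codon 61 (chromosome 16, position 91182913, transcript ENSMUST00000023693). It was in 2 of 53 reads of library 1 (3.77%) and 2 of 55 of library 2 (3.64%), together 3.70% (1.02 to 9.21), so that the value rests on 4 reads. All 4 were reverse reads, and 0 of 31 forward reads had it, which allows a share of up to 9.68% by 3 counts and of up to 11.2% by the exact interval. The deletion lies 84 bases into an exon of 124 bases, with 36 bases after it. The alternative allele had a median base quality of 20, the lowest that the filter let pass, against 33 for the reference allele, and lay a median of 2 bases from the read end. The median distance between read pairs on the genome, introns included, was 13013 bases with it and 5845 without.

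Jak2, the kinase below the interferon gamma receptor, had 3 variants, 2 in MBT2 and 1 in LM8. The silent change at codon 276 in MBT2 (A276, chromosome 19, position 29259930, exon 6, transcript ENSMUST00000025705) was in 48 of 63 reads of library 1 (76.2%) and 58 of 78 of library 2 (74.4%), together 75.2% (67.2 to 82.1). Both libraries were high, and both strands too, with 71.8% of forward and 78.6% of reverse reads. At 70% of reads or more were 9.31% of MBT2 substitutions. Its alternative window occurred in 0 genes, and it was the one substitution of the 5 genes in MBT2 that left the protein as it was.

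The second MBT2 variant of Jak2 was a deletion of 97 bases in the same exon, annotated as a frameshift and ending 45 bases before A276 (positions 29259788 to 29259885). It was in 5 of 191 reads of library 1 (2.62%) and 10 of 181 of library 2 (5.52%), together 4.03% (2.27 to 6.56). Library 2 held 10 of the 15 reads, and the value without library 2 was 2.62%. The caller's own fraction was 0.0054 in library 1 and 0.029 in library 2, on average 1.72%. The alternative allele lay a median of 3 bases from the read end, and 24.6% of all MBT2 records lay at most 3 bases from it. The median distance between read pairs on the genome was 5733 bases with the deletion and 2534 without. The deletion lies within exon 6, with 75 exon bases before it and 150 after it, and no Jak2 intron has its length, the shortest being 143 bases. It can be placed in 4 equivalent ways, and in 1 of them the deleted bases start with GT and end with AG, as shown above. The joined sequence occurred in 0 annotated transcripts. The same edges were looked for in other deletions by a looser rule, on either strand and without asking that placements be equivalent. With the deleted bases rotated by up to 5 bases, they were present in 86.2% of the 624 long deletions in MBT2 that match no intron length. Those had a median of 78.1% of reads, far above the share in Jak2, and 8.80% of all MBT2 long deletions were under 5% of reads.

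In LM8, Jak2 had an insertion of 1 base at codon 953 in exon 20, which encodes part of the kinase domain (position 29279100). It was in 3 of 56 reads of library 1 (5.36%) and 3 of 39 of library 2 (7.69%), together 6.32% (2.35 to 13.2), so that the value rests on 6 reads. The inserted base lengthens a run of 6 A to 7. Of the 638 single-base insertions in LM8, 95.1% were in runs of A or T as the lists give them, with a median of 4.16% of reads. The insertion was in 13.5% of forward reads and 1.72% of reverse reads, and that difference did not pass the adjusted test given above.

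**Figure D3:**
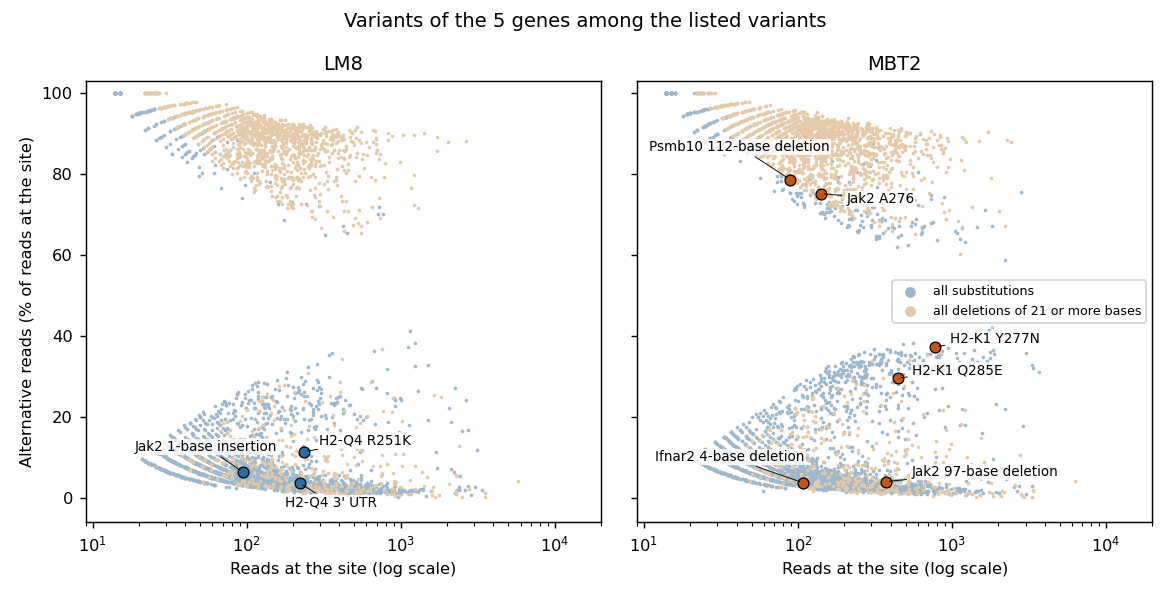
Share of reads with the alternative allele (y axis, percent) against reads at the site (x axis, log scale) for all listed substitutions and long deletions (small points) and the 9 variants of the 5 genes (large points), LM8 left and MBT2 right. H2-K1 Y277N has the most reads of the 9, 776, at 37.4%, and 13.8% of MBT2 and 6.21% of LM8 substitutions lie from 20% up to 70% of reads.

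Around these genes, a list of 109 symbols of antigen presentation and the interferon response held 37 variants in 27 genes in LM8 and 47 in 27 genes in MBT2, the 5 genes included. Protein-altering ones were 12 in 9 genes in LM8 (32.4% of its 37) and 25 in 17 genes in MBT2 (53.2% of its 47), beside 35.6% and 38.0% over all records. Long deletions were 5 of these 12 and 11 of these 25. Without them 7 altering variants in LM8 (28% of the remaining records) and 14 in MBT2 (43.8%) were left, beside 25.7% and 28.1% over all such records. The 5 genes, chosen with earlier results of these data known, hold 2 of these 7 and 3 of these 14. The shares are therefore a description and no test of the list. Among 17 interferon receptor and signalling genes the altering counts were 3 in LM8 and 8 in MBT2, or 1 and 3 without long deletions. Among 37 interferon target symbols they were 3 of 8 and 6 of 11, or 2 of 6 and 4 of 9 without long deletions. These symbols include old and new names of the same gene, Ddx58 with Rigi and Tmem173 with Sting1. Among 14 genes of peptide supply the altering counts were 1 of 8 and 4 of 11, or 0 of 6 and 2 of 8. The 8 genes of peptide loading had 0 of 5 and 3 of 5, and the 6 regulators 1 of 3 and 0 of 1. None of these altering variants was a long deletion. The 7 class II genes had 0 variants in either line.

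Of 20 class I heavy chain and related genes, H2-Q1, H2-Q4 and H2-T22 had variants in LM8 and H2-K1 and H2-T10 in MBT2. H2-Q1 carried G258E and D259N, again in exon 4, each in 0 of 13 reads of library 1 and 2 of 15 of library 2 (7.14% of 28 reads, 0.877 to 23.5). A share this low is not told apart from 0 by library 1. The sites, at positions 35542202 and 35542204, had equal counts, all of forward reads, and may rest on the same 2 reads. They are counted separately among the altering LM8 variants above. H2-T10 had deletions of 118 bases in 92.7% of 41 reads and of 109 bases in 15% of 120 reads, and H2-T22 one of 122 bases in 88.6% of 79 reads. The lengths of these deletions are not set against the introns of their genes here. Over all long deletions in annotated genes, 68.0% of 1567 in LM8 and 67.7% of 1934 in MBT2 had an intron's length. Outside class I, protein-altering substitutions in at least 10% of reads were in MBT2: V810F of Ifih1, a sensor of viral RNA, in 51 of 77 and 46 of 61 reads (70.3% together, 61.9 to 77.8), and Y1062H of Oas3, an antiviral synthetase, in 16 of 80 and 18 of 77 reads (21.7%, 15.5 to 28.9). R670Q of Ddx58, another RNA sensor, was in 14.3% of reads of library 1 and 5.88% of library 2, together 4 of 38 reads (10.5%, 2.94 to 24.8). Without library 1 it was under the 10% that named it. The germline quality was 6 for V810F, 71 for Y1062H and 19 for R670Q, all under the ceiling of 93. R670Q also had a population frequency other than the value that most records share. Its alternative base lay a median of 1 base from the read end, in 4 of 32 forward and 0 of 6 reverse reads. Whether these alleles are germline was not tested.

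Sites in both lists allowed a test between the lines, which none of the 5 genes could enter. A two-sided Fisher's exact test, with Benjamini-Hochberg adjustment over 1261 sites, called 92 of them, which is 7.3%, and 0 of the 8 in the list of 109 symbols, with 1 at an unadjusted p under 0.05. That one was an 87-base deletion of Tyk2, an interferon receptor kinase, annotated as a splice acceptor change (chromosome 9, position 21027043), in 95.2% of 105 LM8 reads and 85.1% of 67 MBT2 reads (exact test, adjusted p = 0.235). The other 7 were in Irf1, Irf7, Lnpep, Npepps, Stat2 and Tyk2. The test compares the reads of the lines and not repeated cultures.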

How the data were processed

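Poly(A) RNA of 2 lines, 2 libraries each, was made into directional libraries and read from both ends at 75 bases, per the labels' protocols. The authors deposited 1 variant list per line, with whole reads per allele and library. Both libraries were called jointly with Mutect 2.2 without a matched normal and filtered with GATK 4.1.5.0, and effects were annotated with SnpEff 5.1d on GRCm39, per the file headers. The filter allowed at most 2 events in a region and asked for a median mapping quality of 30 and base quality of 20, per the file headers. The submitters' processing notes name bcl2fastq 2.17.1.14, cutadapt 1.9.1, STAR 2.7.9a and GATK 4.3.0. The handling of spliced reads ahead of variant calling is not stated in these sources. Reads at listed sites came to 596298 and 571088 for the LM8 libraries, and to 742698 and 790762 for those of MBT2.

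A share divides alternative reads by the reads of both alleles, with the 2 libraries of a line added up. Tests were two-sided Fisher's exact tests per site with Benjamini-Hochberg adjustment over all sites of a list and a threshold of 0.05. Amplified reads do not count separate molecules, so intervals cover counting error only. The tests were checked on simulated data. Every variant of the 5 genes is named, and other genes of the pathway where they are class I heavy chain genes or carry a protein-altering substitution in at least 0.1 of reads. The genes and lists were chosen with earlier results of these data known. GENCODE M21 is of GRCm38, so transcript sequences and intron lengths were used and its coordinates were not. A window of 21 bases was searched on the RNA strand of all its transcripts, and 99.1% of LM8 and 99.3% of MBT2 coding substitutions could be placed. Alternatives were other ways to form a share, stricter depth, other tests, no long deletions, 1 library left out and the replicate number as a block. Tests used scipy 1.17.1 under Python 3.11.15, with tables in pandas 2.3.3 and numpy 2.4.6, and plots were drawn with matplotlib 3.10.9.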

Additional observations from a re-analysis of the deposited data

How the results depend on the processing

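With 1 library left out, each of the 9 shares becomes that of the other library, as given in the report, and the Jak2 97-base deletion moved most in proportion, to 2.62% or 5.52% from 4.03%. With the caller's own fraction, 6 shares moved by less than the spread between libraries, while that of the Ifnar2 deletion was 5.35%, of the Jak2 insertion 8.2% and of the Jak2 97-base deletion 1.72%. The counts of 3 LM8 and 6 MBT2 variants, and of 0 in both lists, stayed within 1.5 times of these under every alternative run, the MBT2 count being 4 without long deletions and the protein-altering one 3 instead of 5. In the wider list, an alternative chosen after seeing the data, the protein-altering counts without long deletions were 7 in LM8 and 14 in MBT2, and 1 and 3 in receptors and signalling. Duplicates differed at 0 sites in either line under every alternative, a chi-square test included. The strand test, whose alternatives were chosen after seeing the data, called 148 LM8 and 222 MBT2 sites, 57 and 62 without long deletions, and 27 and 24 on substitutions alone, where both H2-K1 sites were still called (adjusted exact p = 1.47e-04 and 0.013). Of the sites in both lists, 92 differed between the lines, 11 without long deletions (516 sites tested) and 39 to 45 with 1 library per line, where fewer reads were tested. With the replicate number as a block the count was 92. The correlation of library differences between the lines was -0.0222 over 1261 sites. As duplicates differed at 0 sites after adjustment, this correlation cannot tell if the numbers pair the libraries. Shares of 4 to 8 reads, as for Ifnar2, the H2-Q4 3′ UTR and the Jak2 insertion, are limited by depth.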

Other observations

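Some further variants of the wider gene list were chosen after their values were seen. In MBT2, Ptpn11, a phosphatase gene of cytokine signalling, had a substitution in the 3′ UTR (chromosome 5, position 121271769) in 287 of 364 reads of library 1 (78.8%) and 259 of 365 of library 2 (70.96%), with an unadjusted exact p of 0.0167 between duplicates and an adjusted p of 1. Oasl2, an interferon target gene, had the silent change A120 in 20% of 215 reads, and the 3′ UTR of Oas3 had a change in 22.4% of 116 reads, beside 21.7% for the missense change of the same gene. In LM8, Thop1, which encodes a peptidase that trims peptides, had a 3′ UTR change (chromosome 10, position 80917955) in 17.6% of library 1 reads and 32.6% of library 2 reads, with an unadjusted exact p of 0.0262 between duplicates and an adjusted p of 1. The Irf1 3′ UTR change (chromosome 11, position 53667764) was in both lists, at 7.41% of 81 LM8 reads and 8% of 125 MBT2 reads.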
